A study of Mus musculus with 6 samples.

Results

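Microtubules are hollow polymers of alpha- and beta-tubulin dimers, and gamma-tubulin seeds them at microtubule organising centres. In the tall Sertoli cell, which supports germ cells in the seminiferous tubule, microtubules run along the length of the cell and serve as tracks on which organelles and elongating spermatids are moved. The genes described here are 8 tubulins: the alpha-tubulins Tuba1a, Tuba1b and Tuba4a, the beta-tubulins Tubb2a, Tubb2b, Tubb5 and Tubb6, and the gamma-tubulin Tubg1. Their probes were taken by gene symbol, as every probe whose symbol in the platform annotation was one of the 8, out of 19057 symbols on the arrays. This gave 15 of 45281 probes. Of these, 11 probes for 6 genes were detected on at least 3 arrays and were tested, among 21805 tested probes for 12277 genes. All 4 remaining probes were too dim to test, and Tuba4a and Tubb2a had no other.

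Expression was measured on Illumina bead arrays with RNA of Sertoli cells from mice aged 6 weeks on a mixed C57B6J/129SvEv background. The Rb cKO group (3 arrays) had the genotype Rb1 flox/- with Amh-Cre, in which Cre recombinase is driven by the promoter of Amh, a hormone gene of Sertoli cells, and acts on a floxed allele of the retinoblastoma gene. The Control group (3 arrays) was Rb1 flox/- without Cre, so both groups shared the null allele, and controls kept 1 floxed allele uncut. Cells of both groups carried a Sox9-GFP label and were sorted on it. Only the Rb cKO mice carried Cre, so Cre and the lost Rb1 allele cannot be told apart. No label states that each array had its own animal, and p-values therefore reflect how these 6 samples scatter, in part perhaps technically.

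Both Rb1 probes were lower on all 3 Rb cKO arrays than on any Control array, with differences of -1.22 ± 0.32 (SE) and -0.98 ± 0.34 log2 units, and neither passed the threshold (adjusted p 0.399 and 0.668). Whether these probes fall inside the deleted stretch was not determined. Rb cKO replicate 1 and Control replicate 3 stood apart, with scores of -113.9 and 110.2 on principal component 1, which carried 58.9% of the variance. The other 4 arrays scored between -34.3 and 31.4. All 13 Sertoli markers on the arrays, of 16 listed, were measured and had negative differences, with a median of -0.45 log2 units and a summed intensity of 55241 to 70377 on Rb cKO arrays and 66576 to 69692 on Control arrays. None of the 13 passed the threshold (smallest adjusted p 0.766, limma). Over all 12277 genes, 7524 had positive differences. Markers of spermatids were also bright in both groups. The 9 measured of 10 summed to 116658 to 133778 on Rb cKO arrays and 82656 to 129118 on Control arrays, so the tubulin signals below are those of a sorted fraction that also held germ cell RNA. In such a fraction, fewer cells of a type and less RNA per cell cannot be told apart.

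No tubulin among the 8 passed the test between genotypes. Of the 11 tested probes, 0 were higher and 0 were lower in Rb cKO at an adjusted p under 0.05, against 0.142% of all tested probes higher and 0% lower (limma, two-sided, with Benjamini-Hochberg adjustment over all 21805 probes). Before adjustment, 2 had a p under 0.05 and were higher and 0 were lower, against 4.63% and 1.76% of all tested probes. One of these 2, Tubb2b probe ILMN_1377919, passed the filter only through its Rb cKO arrays and so had to differ. The beta-tubulin Tubb6 had the smallest p, at 2.27 times the Control level, while 1 Tuba1a probe and Tuba1b spread by several log2 units within the Rb cKO group. The median difference was 0.16 log2 units over the 11 probes and 0.078 over all tested probes. The arrays of the groups did not overlap for 3 of the 11 probes, all higher in Rb cKO, where 8.04% of all tested probes were higher and 4.01% lower without overlap. The same Tubb2b probe is 1 of the 3.

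**Figure D1:**
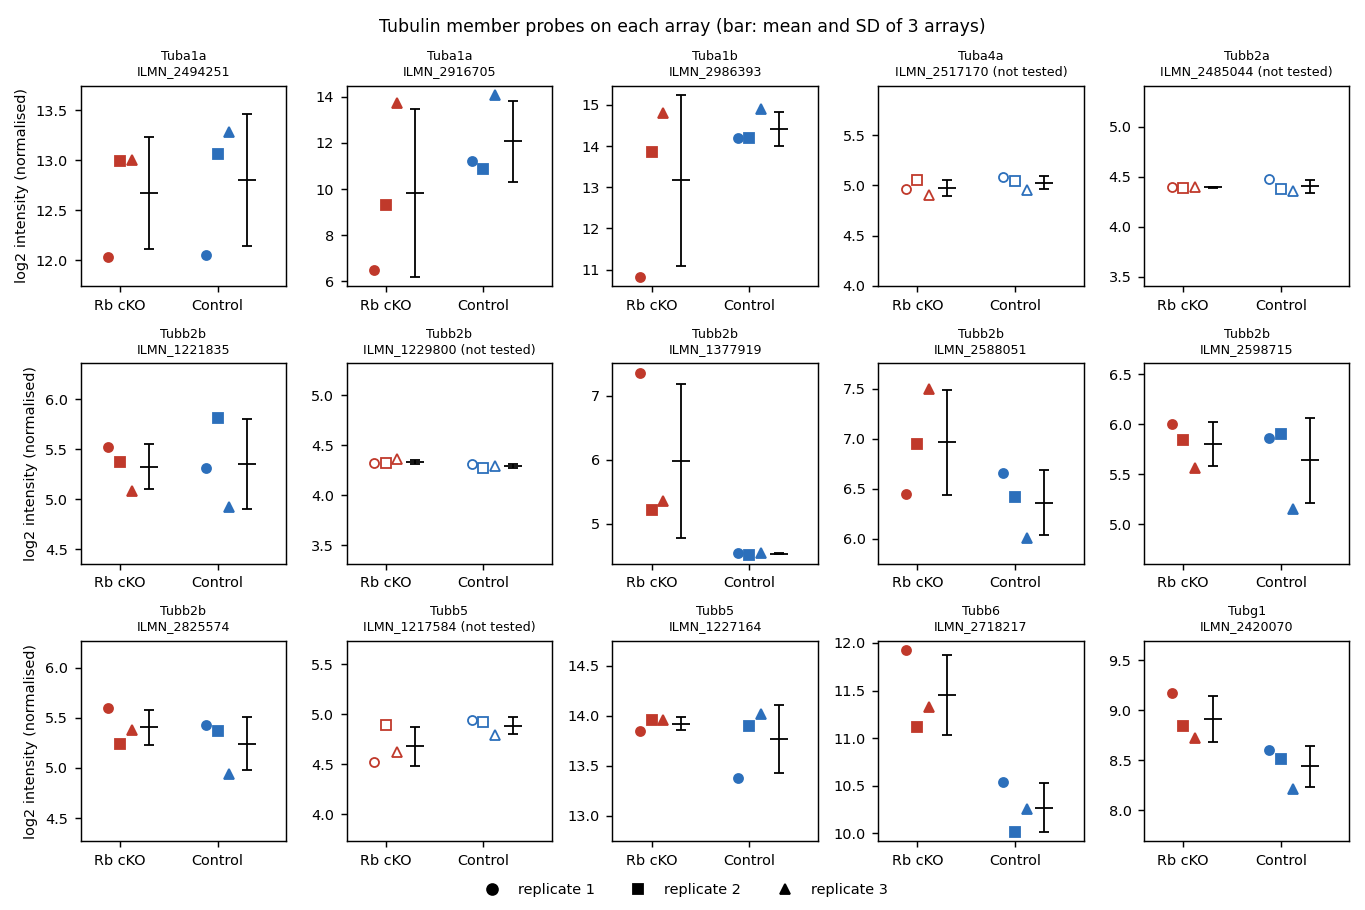
Normalised log2 intensity of each of the 15 tubulin member probes on the 3 Rb cKO arrays (red) and the 3 Control arrays (blue), with 1 panel per probe and its own scale; marker shape gives the replicate number, open markers a probe too dim to test, and the bar the mean ± SD of 3 arrays. Tubb6 and Tubg1 lie higher on every Rb cKO array than on any Control array, while Tuba1a probe ILMN_2916705 and Tuba1b spread widely within the Rb cKO group.

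Tuba1a encodes an alpha-tubulin best known from developing neurons, and 2 probes measured it. They behaved differently across the same 6 arrays. On the first, ILMN_2494251, the log2 levels were 12.03, 12.99 and 13.01 on Rb cKO replicates 1 to 3, against 12.05, 13.07 and 13.29 on Control replicates 1 to 3. Replicate 1 was the lowest array in both groups and the groups overlapped fully. The difference was -0.13 ± 0.43 (SE) log2 units, with a 95% confidence interval of -1.14 to 0.89 and an adjusted p of 0.935.

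On the second Tuba1a probe, ILMN_2916705, the log2 levels were 6.49, 9.30 and 13.73 in Rb cKO, against 11.23, 10.88 and 14.09 in Control. Replicate 3 was far above the others in both groups, and Rb cKO replicate 1 was far below. In deposited intensity this is 103.3, 735.1 and 12527 on the Rb cKO arrays and 2480, 1700.0 and 15954 on the Control arrays, a 154-fold span between the dimmest and the brightest array. Its SD within groups, 2.87 log2 units, was larger than that of 99.9% of tested probes, whose median was 0.423. The error between beads was small beside that, at 1.65% to 3.56% of the signal (standard error). The difference between genotypes was -2.22 ± 1.74 (SE) with an interval of -6.31 to 1.86 and an adjusted p of 0.766, and it was -0.55 without Rb cKO replicate 1, -1.21 without Control replicate 3, 0.46 without both, and -4.17 without Rb cKO replicate 3. Its lowest array was Rb cKO replicate 1 and its highest Control replicate 3, which are also the ends of principal component 1.

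Tuba1b encodes the widely expressed alpha-tubulin of most cells, and 1 probe measured it. Alpha-tubulin genes are nearly alike in their coding sequence, and which of them each probe reads could not be resolved here. Its log2 levels were 10.83, 13.86 and 14.80 in Rb cKO, against 14.18, 14.18 and 14.89 in Control. A single array, Rb cKO replicate 1, lay far below the other 5. The means were 13.16 ± 2.08 in Rb cKO and 14.42 ± 0.41 in Control (SD, n = 3 each), a difference of -1.26 ± 0.93 (SE) with an interval of -3.44 to 0.93 and an adjusted p of 0.766. The difference was -0.087 without Rb cKO replicate 1, 0.15 without that array and Control replicate 3, and -2.08 without Rb cKO replicate 3. The probe was at the top of the measured scale on 1 array: no other of the 45281 probes exceeded its intensity of 27991 on Control replicate 3. A probe of the spermatocyte marker Ldhc had the same intensity there. Tuba1b ranked 6 on Rb cKO replicate 3, so differences among the brightest arrays may be understated. Tuba4a, another alpha-tubulin, was above background on 1 of the 6 arrays, a Control array, and no difference is given for it.

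The stretches around the start sites of Tuba1a and Tuba1b, which are neighbouring genes on chromosome 15, are printed with that of Tubb5, to set the 2 members whose probes spread most within groups (Tuba1a on 1 of its 2 probes) beside a steadier one. These 3 were chosen after their values were seen. Each stretch holds 250 bases before and 50 bases after the annotated start, from RefSeq on GRCm38.p6, and 5 of the 8 members had one. Capitals mark GC boxes (GGGCGG or its reverse complement CCGCCC) and CCAAT boxes (CCAAT or its reverse complement ATTGG), searched on both strands.
Tuba1a chr15:98953452-98953751 minus strand: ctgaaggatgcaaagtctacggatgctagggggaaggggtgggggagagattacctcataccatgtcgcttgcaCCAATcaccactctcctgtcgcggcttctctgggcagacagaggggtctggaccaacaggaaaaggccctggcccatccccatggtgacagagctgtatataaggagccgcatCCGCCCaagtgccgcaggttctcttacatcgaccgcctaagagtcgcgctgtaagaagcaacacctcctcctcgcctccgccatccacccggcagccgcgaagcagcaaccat
Tuba1b chr15:98934341-98934640 minus strand: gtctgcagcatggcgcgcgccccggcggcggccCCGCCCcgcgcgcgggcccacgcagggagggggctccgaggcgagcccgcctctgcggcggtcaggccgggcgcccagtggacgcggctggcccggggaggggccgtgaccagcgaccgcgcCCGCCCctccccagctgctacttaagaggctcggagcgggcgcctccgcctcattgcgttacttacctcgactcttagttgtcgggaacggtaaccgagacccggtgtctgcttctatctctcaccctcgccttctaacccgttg
Tubb5 chr17:35838252-35838551 minus strand: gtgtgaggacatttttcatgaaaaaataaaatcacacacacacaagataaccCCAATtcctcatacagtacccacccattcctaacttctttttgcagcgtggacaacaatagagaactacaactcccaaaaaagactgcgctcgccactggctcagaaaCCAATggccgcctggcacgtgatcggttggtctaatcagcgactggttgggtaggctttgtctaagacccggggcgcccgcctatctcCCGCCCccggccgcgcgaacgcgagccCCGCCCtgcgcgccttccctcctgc
The Tuba1a stretch held 1 GC box and 1 CCAAT box, that of Tuba1b 2 GC boxes and no CCAAT box, and that of Tubb5 2 of each. Over all 32851 such stretches in the table, 35.7% held a GC box and 37.4% a CCAAT box. The Rb protein restrains E2F transcription factors, so the letters TTTCGCGC, TTTGGCGC and TTTCCCGC, forms of the E2F motif, were also searched on both strands. They were in none of the 5 members' stretches and in 1.84% of all stretches. The G and C content was 59% for Tuba1a, 72.7% for Tuba1b and 55% for Tubb5.

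**Figure D2:**
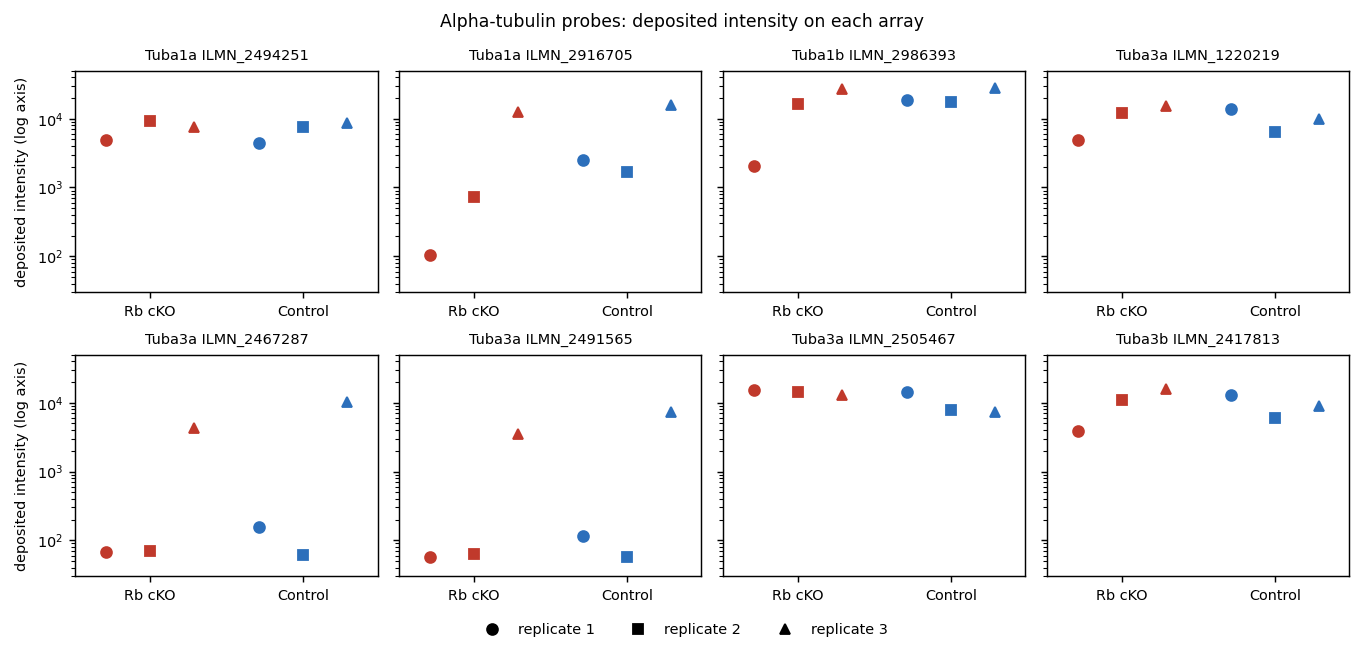
Deposited intensity (log axis) of the 8 tested probes of Tuba1a, Tuba1b, Tuba3a and Tuba3b on the 3 Rb cKO arrays (red, left) and the 3 Control arrays (blue, right), with marker shape giving the replicate number. Tuba3a probes ILMN_2467287 and ILMN_2491565 are above 3000 only on replicate 3 of each group, whereas Tuba3a probe ILMN_2505467 stays between 7225 and 15405 on all 6 arrays.

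Among the beta-tubulins, Tubb6 was the member with the smallest p. It is a class V beta-tubulin found in many tissues. The log2 levels of its 1 probe were 11.92, 11.11 and 11.33 in Rb cKO, against 10.54, 10.02 and 10.26 in Control. Every Rb cKO array was above every Control array, and replicate 1 was the highest array of each group. In deposited intensity the arrays read 4509, 2534 and 2398 in Rb cKO and 1557, 931.7 and 1192 in Control, with a standard error between beads of at most 2.09% of the signal. The difference was 1.18 ± 0.31 (SE) log2 units, with a 95% confidence interval of 0.45 to 1.91 before any adjustment, and an adjusted p of 0.397. It lay between 0.94 and 1.36 in all 15 alternatives, with adjusted p-values from 0.180 with the replicate number as a block to 0.995 without Rb cKO replicate 1 and Control replicate 3. Some alternatives alter only the probes tested or the error, and so could not move the difference.

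Summed marker intensities of peritubular, leukocyte, endothelial and spermatogonial cells were, like Tubb6, higher on every Rb cKO array than on any Control array, while those of Leydig cells, spermatocytes and spermatids overlapped. None of these markers passed the test. A marker entered a sum if detected on at least 3 arrays, and so could enter through its Rb cKO arrays alone. The comparison of sums is therefore not independent of the filter. On Control arrays Star (Leydig) averaged 4.67, Emcn (endothelial) 4.88 and Adgre1 (leukocyte) 5.06 log2 units. Tubb5 probe ILMN_1217584, not above background on any array, averaged 4.89 there. The 6 measured of 8 peritubular myoid markers, genes of the contractile cells around the tubule, summed to an intensity of 12321 to 24321 on Rb cKO arrays and 5281 to 10657 on Control arrays, and Tagln and Cnn1 were not above the filter. The 4 measured of 12 leukocyte markers summed to 798 to 1082 on Rb cKO arrays and 396 to 403 on Control arrays, and the defining marker Ptprc was not above the filter. The 7 measured of 8 endothelial markers summed to 909 to 1329 on Rb cKO arrays and 632 to 774 on Control arrays. The 4 measured of 7 Leydig cell markers summed to 2711 to 10016 on Rb cKO arrays and 1267 to 2924 on Control arrays. The 8 measured of 10 spermatogonia markers summed to 5918 to 6263 on Rb cKO arrays and 3945 to 5088 on Control arrays. Zbtb16 and Nanos3 were not above the filter. The 8 did not all move together: 6 had positive differences and 2 negative ones, Dmrt1 at -0.54 and Uchl1 at -0.46 log2 units. Dazl alone averaged an intensity of 3081 on Rb cKO arrays and 1602 on Control arrays. Its own arrays overlapped, with 2582 on Rb cKO replicate 2 and 2595 on Control replicate 1. The 8 measured of 10 spermatocyte markers summed to 70728 to 103765 on Rb cKO arrays and 55061 to 90361 on Control arrays. The part of these cells in the Tubb6 difference was not tested.

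Tubb5, the main beta-tubulin of many dividing tissues, was bright and steady on probe ILMN_1227164. Its log2 levels were 13.84, 13.96 and 13.95 in Rb cKO, against 13.38, 13.90 and 14.02 in Control. The groups overlapped, and the lowest array was Control replicate 1. The difference was 0.15 ± 0.27 (SE), with an interval of -0.49 to 0.79 and an adjusted p of 0.867, and it turned to -0.041 without Control replicate 1. The other Tubb5 probe, ILMN_1217584, was not above background on any array, with intensities of 48.6 to 61.7 in Rb cKO and 54.3 to 58.9 in Control.

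Tubb2b and Tubb2a are a neighbouring pair of beta-tubulin genes on chromosome 13, both known from neurons. The Tubb2a probe was not above background on any array. Tubb2b had 6 probes, of which 5 were tested, and none of these had a log2 level over 7.49 on any array. The brightest, ILMN_2588051, was at 6.45, 6.94 and 7.49 in Rb cKO, against 6.66, 6.42 and 6.01 in Control. These overlapped through Rb cKO replicate 1, and the difference was 0.60 ± 0.35 (SE) with an adjusted p of 0.766, or 0.34 without Rb cKO replicate 3. Probe ILMN_1377919 was detected on all 3 Rb cKO arrays and on 0 of 3 Control arrays. It was at 7.36, 5.22 and 5.36 in Rb cKO, against 4.54, 4.51 and 4.54 in Control, and Rb cKO replicate 1 was well above the rest. With each Control array set at the higher of its own value and the dimmest detected probe, the mean Rb cKO level was 1.92-fold higher. That mean includes Rb cKO replicate 1, and the filter kept the probe only through its Rb cKO arrays. Its adjusted p was 0.732 (limma). The difference was 1.45 log2 units, and 0.76 without Rb cKO replicate 1. The remaining 3 tested probes differed by 0.16, 0.16 and -0.022, with overlapping groups, so the probes of Tubb2b did not give a single answer.

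Tubg1 encodes gamma-tubulin, the nucleating tubulin that every dividing cell needs at its centrosomes. Its log2 levels were 9.17, 8.85 and 8.72 in Rb cKO, against 8.60, 8.51 and 8.21 in Control. The groups did not overlap, though the lowest Rb cKO array and the highest Control array were close, and the order of the replicates was the same in both groups. The means were 8.91 ± 0.23 in Rb cKO and 8.44 ± 0.21 in Control (SD, n = 3 each), which differ by 0.47 ± 0.26 (SE), with an interval of -0.15 to 1.09 and an adjusted p of 0.766. It was 0.23 without Rb cKO replicate 1 and Control replicate 3. Tubg2, a near copy, is its neighbour on chromosome 11, and whether the probe also reads it was not determined.

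**Figure D3:**
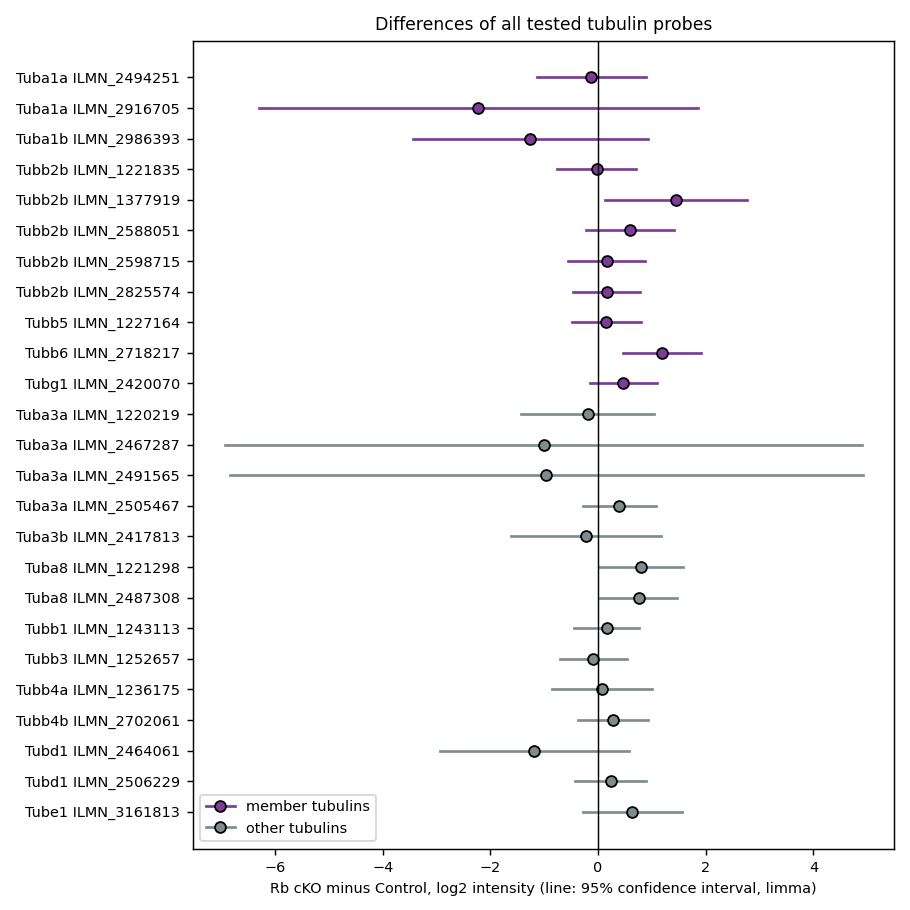
Difference between Rb cKO and Control in log2 intensity for the 25 tested tubulin probes, with members in purple and the other tubulins in grey; lines are 95% confidence intervals from limma, before adjustment for the number of probes. The intervals of Tubb6 and of both tested Tuba8 probes lie above 0; so does that of Tubb2b probe ILMN_1377919, which the filter kept only through its Rb cKO arrays, and those of Tuba1a probe ILMN_2916705, Tuba1b and 2 Tuba3a probes are the widest among the alpha-tubulins.

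Of 14 other tubulin names listed, 10 were on the arrays with 19 probes, and 14 probes for 9 genes were tested. In this list 0 probes passed in either direction, with differences from -1.18 to 0.79. Tuba8, an alpha-tubulin known from testis and muscle, was at 11.25, 11.06 and 11.52 in Rb cKO and 11.07, 10.06 and 10.33 in Control on its brighter probe, where Control replicate 1 reached the lowest Rb cKO array. That probe differed by 0.79 ± 0.33 (SE) and another by 0.76 ± 0.31 (adjusted p 0.766 and 0.762). The epsilon-tubulin Tube1, a centriole protein, differed by 0.63, which was 0.37 without Rb cKO replicate 1, 0.32 without Control replicate 3 and 0.056 without both. The beta-tubulin Tubb4b, a component of cilia and flagella, differed by 0.28, and by 0.17 without Control replicate 3 or 0.48 without Control replicate 1.

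Tuba3a and Tuba3b are testis alpha-tubulins of germ cells whose sequences are nearly the same, so their probes may read both genes. The 4 tested probes of Tuba3a did not all share a single pattern. Probe ILMN_2467287 was at log2 levels of 5.36, 5.20 and 12.20 in Rb cKO, against 7.07, 5.22 and 13.52 in Control, which is far higher on replicate 3 of both groups than on the other 4 arrays. Probe ILMN_2491565 was also high only there, with intensities of 57.7, 64.0 and 3514 in Rb cKO and 115.4, 56.5 and 7441 in Control. Both had a within-group SD above that of at least 99.99% of tested probes. Probe ILMN_2505467 was instead at 13.65, 13.66 and 13.80 in Rb cKO, against 13.78, 13.13 and 13.03 in Control, and showed no step on replicate 3. Only Tuba1a probe ILMN_2916705 among the members was also highest on replicate 3 of both groups by more than 2 log2 units.

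The other genes that build, modify and use microtubules were compared through 7 lists, including the other tubulins. These held 93 measured genes. On each gene's brightest tested probe, 0 were called higher and 0 lower in Rb cKO, against 0.195% and 0% of all 12277 genes. Before adjustment, 3 higher and 1 lower had a p under 0.05, against 5.96% and 1.81% of all genes. The groups did not overlap for 4 higher and 3 lower genes, where 9.56% and 4.33% of all genes did so. The median difference over the 93 genes was 0.11, beside 0.12 over all genes, and without Rb cKO replicate 1 and Control replicate 3 these medians were -0.020 and -0.028.

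Of the gamma-tubulin ring complex, which seeds microtubules together with Tubg1, 9 genes were measured, 0 passed, and the median was 0.17. Its subunit Tubgcp2 differed by 0.46, and by 0.28 without Rb cKO replicate 3 or 0.27 without Control replicate 3. The small subunit Mzt2 differed by 0.41, and by 0.25 without Control replicate 3. Another small subunit, Mzt1, was at 4.55, 6.05 and 7.57 in Rb cKO and 6.67, 6.85 and 9.47 in Control, a difference of -1.61 ± 0.96 (SE). It was detected on 2 of the 3 Rb cKO arrays. On Rb cKO replicate 1 it read an intensity of 49.5, where the median probe read 59.5. Like the second Tuba1a probe it was lowest on Rb cKO replicate 1 and highest on Control replicate 3, and the difference was -0.85 without Rb cKO replicate 1, -0.70 without Control replicate 3 and 0.051 without both. Nme7, a kinase-like member of the complex, differed by -0.49, while its 6 other tested probes ran from -0.76 to 1.03.

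Of the genes that fold tubulin, 21 were measured, 0 passed, and the median was -0.045. The chaperonin subunit Cct7 was at 7.84, 7.50 and 7.47 in Rb cKO and 6.99, 7.02 and 6.45 in Control. The groups did not overlap and the adjusted p was 0.685 for a difference of 0.78 ± 0.28 (SE), which was 0.48 without Rb cKO replicate 1 and Control replicate 3. Another chaperonin subunit, Cct6a, differed by -0.80, and by -0.16 without Rb cKO replicate 1 or -1.36 without Rb cKO replicate 3. The other tested Cct6a probe gave -0.90. The tubulin cofactor Tbcd differed by -0.37 on 1 probe, which was -0.15 without Rb cKO replicate 1 and -0.23 without Control replicate 2, and by 0.36 on the other. Tbcel, a relative of the cofactor that releases tubulin, differed by -0.32. Of the enzymes that modify tubulin, 14 were measured, 0 passed, and the median was 0.18. Ttll4, which adds glutamate chains to tubulin, was at 9.56, 10.30 and 10.12 in Rb cKO and 10.77, 11.31 and 10.82 in Control. That was lower on every Rb cKO array, with a difference of -0.98 ± 0.31 (SE) and an adjusted p of 0.590, while its 3 other tested probes gave -0.68, -0.64 and 0.47. Svbp, the partner of the enzymes that remove tyrosine from tubulin, differed by 0.57 without overlap, Ttll1, of the Ttll4 family, by 0.73, and Agtpbp1, which removes glutamates, by 0.37. Without Control replicate 3 these were 0.30 for Svbp, 0.25 for Ttll1 and 0.22 for Agtpbp1, and Ttll1 was at 0.069 without Rb cKO replicate 1 as well. The other tested Ttll1 probes gave 0.088 and 0.57. Agtpbp1 was dim, at intensities of 66.8 to 85.9.

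Of the microtubule-binding and tip proteins, 17 were measured, 0 passed, and the median was 0.11. Map7d1, a microtubule-binding protein, was at 9.62, 8.43 and 8.50 in Rb cKO and 8.12, 7.59 and 7.32 in Control. These did not overlap, and the difference of 1.17 ± 0.40 (SE) had an adjusted p of 0.668. It was 0.61 without Rb cKO replicate 1 and Control replicate 3. Its other probe gave 0.76. The plus-end protein Mapre1 differed by -0.48 without overlap, and by -0.25 without Rb cKO replicate 3. The tip protein Clip1 differed by 0.66, which was 0.28 without Control replicate 3 and 1.17 without Control replicate 1. The other tested Clip1 probes gave 1.07 and 0.71. Map4, which stabilises microtubules, differed by -0.99, which was -0.16 without Control replicate 3 and -1.67 without Control replicate 2. It was detected on 5 of the 6 arrays and dim, at intensities of 58.6 to 96.3, on all but Control replicate 3. Of the genes that destabilise or sever microtubules, 9 were measured, 0 passed, and the median was 0.37, or 0.15 without Rb cKO replicate 1 and Control replicate 3. In it Kif2c, a kinesin that depolymerises microtubules in mitosis, differed by 1.00 ± 0.47 (SE), and Katnal1, a severing protein that mouse Sertoli cells need for their microtubules, by 0.66 ± 0.40. Without Control replicate 3 these were 0.54 for Kif2c and 0.36 for Katnal1, without Rb cKO replicate 1 Katnal1 was at 0.38, and without both arrays they were 0.36 for Kif2c and 0.075 for Katnal1. Katnal2 and Kif2b, of the same families, each differed by 0.37. Kif2b was at 0.73 without Control replicate 1 and 0.12 without Control replicate 2, and Katnal2 at 0.56 without Control replicate 1. Of the dynein and kinesin motor genes, 14 were measured, 0 passed, and the median was -0.16. The motor subunits Dync1i1 and Kif5c differed by -0.33 and -0.37, and Kif5c by -0.14 without Rb cKO replicate 3, -0.18 without Control replicate 2 and -0.57 without Control replicate 1. The other tested Dync1i1 probe gave -1.13. The dynein heavy chain Dync1h1 differed by 0.66, which turned to -0.10 without Control replicate 3, and the light chain Dynll2 by -1.07, which turned to 0.30 without that array.

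**Figure D4:**
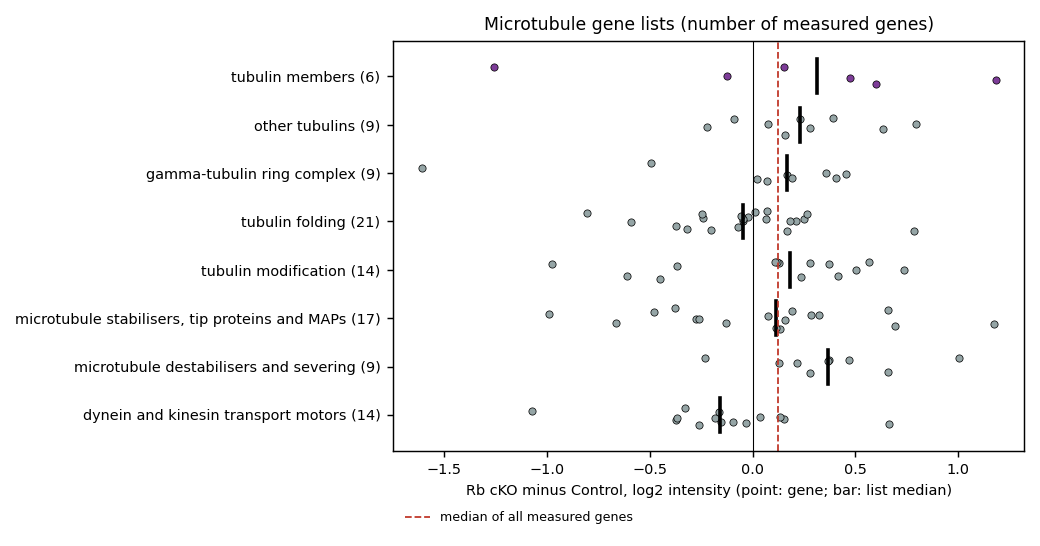
Difference between Rb cKO and Control in log2 intensity for each measured gene (brightest tested probe) of the 8 tubulin members and the 7 microtubule lists; black bars are list medians and the dashed line is the median of all 12277 genes, 0.12. Points of every list fall on both sides of 0, and the list medians run from -0.16 (motors) to 0.37 (destabilisers and severing proteins).

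The genes whose levels ran most like those of Tubb6 over the 6 arrays were sought by Pearson's r of log2 levels between brightest probes, over all 12277 genes. The 5 closest were Mgp, a matrix protein that inhibits calcification (r = 0.993), the actin-binding tropomyosin Tpm4 (0.991), Fsip2l (0.990), Tmem67, a protein of the ciliary transition zone (0.990), and Hat1, a histone acetyltransferase (0.989). With 6 arrays such values are a description of these samples. Fsip2l and Tmem67 were dim, with intensities of 70.3 to 122.5 and 52.4 to 71.6, and Tmem67 was detected on 1 of the 3 Control arrays. Tpm4 was at 10.48, 8.27 and 9.12 in Rb cKO and 6.40, 5.68 and 5.74 in Control, and Mgp at 10.68, 9.01 and 9.43 in Rb cKO and 7.88, 6.74 and 6.74 in Control. As for Tubb6, replicate 1 was the highest array of each group for both. Their differences of 3.35 ± 0.55 (SE) and 2.59 ± 0.52 had adjusted p-values of 0.107 and 0.192 (limma). Both genes were chosen for likeness to Tubb6, itself the member with the smallest p, so a difference between the groups follows from that choice.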

How the data were processed

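Each of the 6 scanner tables holds, per the file headers, the mean intensity of each probe's beads, their spread and number (median 43 to 44 a probe), and a detection score given as a fraction from 0 to 1. The deposited log2 values of the series table were found to be intensities scaled to each array's upper quartile and then centred probe by probe. The submitters' processing notes name BeadStudio. Through this relation probe IDs were joined to scanner numbers. All 45281 matched 1 probe, within 0.000395, with the nearest second probe at 0.00279 or more. The platform annotation named 1 gene for 34885 probes, several for 18 and none for 10378.

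Background correction and quantile normalisation used neqc (offset 16) in limma 3.58.1 under R 4.3.3. Probes with a score over 0.95 on at least 3 arrays, in either group, were tested with lmFit and eBayes. Group was the single term, and p-values were adjusted over all tested probes (Benjamini-Hochberg). The code was tested on simulated data with independent noise on every array, so that test does not cover arrays that vary together. Quoted log2 levels are on that scale, and SE is limma's. The number of arrays limits the precision.

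The members and lists were chosen with earlier results of these data known. Named besides the members were up to 4 genes of each microtubule list with the smallest p on the brightest tested probe, and the 5 genes most like the member with the smallest p; other probes named were chosen after their values were seen. Replicate numbers are shared between groups, and deviations of same-numbered arrays correlated at 0.262, 0.410 and 0.473, all over the set minimum of 0.1. Differently numbered arrays were not compared in this way, so the correlations cannot show whether the numbers pair the arrays. The number entered as a block in 1 of 15 alternatives, and all other fits left the groups unpaired.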

Additional observations from a re-analysis of the deposited data

How the results depend on the processing

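Under all 15 alternatives 0 tested probes of the members and 0 of the 93 genes of the microtubule lists passed. Over all tested probes 31 passed, against 12 with an offset of 50, 13 with uncorrected background, 1 when dim probes were kept, 0 with the replicate block (limma, smallest adjusted p 0.0529), 6 without Rb cKO replicate 1 and Control replicate 3, 56 with 1 probe per gene, and 0 to 15 when 1 array was left out. The count was 0 without Control replicate 1, 2 or 3, where 2622, 1058 and 874 probes had an unadjusted p under 0.05 in limma, and 3257 had one with the block. The replicate block gave Tubb6 an adjusted p of 0.180 and changed no call of a member. Of 159 member values under the alternatives, 143 kept their sign and 16 turned, none past the threshold, and the cause was not tested. The 143 include values that could not turn. Keeping dim probes, requiring detection on all arrays, adding the replicate block or taking 1 probe per gene leaves each difference as it was. With median scaling and with the deposited log2 values, Tuba1a probe ILMN_2494251 was at 0.089 and 0.065 and Tubb2b probe ILMN_1221835 at 0.0028 and 0.012. Without Rb cKO replicate 1 and Control replicate 3, the Tuba1a probes were at 0.44 and 0.46, Tuba1b at 0.15, Tubb2b probes ILMN_2598715 and ILMN_2825574 at -0.18 and -0.088, Mzt1 at 0.051, Cct6a at 0.0081, Dync1h1 at -0.082 and Dynll2 at 0.14. Leaving out 1 array gave -0.50 to 0.20 for Tuba1a probe ILMN_2494251, -0.24 to 0.21 for Tubb2b probe ILMN_1221835, -0.083 to 0.29 for ILMN_2598715, -0.041 to 0.28 for Tubb5, -0.10 to 1.05 for Dync1h1 and -1.87 to 0.30 for Dynll2. Median scaling moved the median of all tested probes to 0.13, beside 0.078.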
